A study of Mus musculus with 20 samples.

Results

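Fibroblasts that were taken only part of the way to a pluripotent state were compared with the fibroblasts they came from, in 3 of the 20 RNA sequencing libraries of the study. The partially reprogrammed lines, 11.3 (MCV6) and 11.5 (MCV8), descended from mouse embryonic fibroblasts (MEF) that carried an Oct4-GFP reporter and had received Oct4, Sox2, c-myc and Klf4 by retrovirus. Each line is 1 subclone with 1 library, and both were grown without feeder cells. The MEF library came from the fibroblasts used to make these lines, with the same reporter and no retrovirus. Lines and MEF shared the strain 129/svJae x C57BL/6, and none was treated. The other 5 libraries of the survey set give reference levels for pluripotent cells. They are 1 library of a fully reprogrammed line from the same fibroblasts (miPS, MCV8.1) and 4 of wild-type mouse embryonic stem cells (mESC), 2 of E14 (129/Ola) and 2 of v6.5 (129/svJae x C57BL/6). All of these were grown on irradiated MEF, which were removed by pre-plating before harvest. The labels do not say whether the MEF were pooled from several embryos, and with 1 MEF library no spread between fibroblast cultures was measured.

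Oct4 (the gene Pou5f1), Sox2, Klf4 and Myc are transcription factors that together can turn a fibroblast into an induced pluripotent cell. Along the way a fibroblast is known to shut down its matrix and contractile genes, to divide faster, to gain epithelial junctions, and last to switch on the genes of its own pluripotency network, such as Nanog, while the retroviruses become silent. Partially reprogrammed lines are clones that keep dividing at a stage before the last of these steps.

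The libraries held 7536503 reads in line 11.3, 7553667 in line 11.5 and 8762640 in MEF, as summed expected counts, and the other 5 held between 7613843 and 23662593. The 100 highest genes took 21.1% and 19.7% of the reads of lines 11.3 and 11.5, against 32.0% in MEF. Over the genes tested, log2 CPM (reads scaled to library size) of the lines correlated with each other at 0.961 (Pearson), and with MEF at 0.787 for line 11.3 and 0.789 for line 11.5. With miPS the correlations of the lines were 0.850 and 0.844, and with the mESC libraries between 0.784 and 0.819. The v6.5 libraries stood apart from their label: they correlated with each other at 0.897, below the 0.932 of v6.5 replicate 2 with either E14 library, while the E14 pair reached 0.992. Since the spread of a gene was estimated from the pairs of lines, E14 and v6.5 libraries, counts of genes below are also given without single libraries.

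Of 16773 genes tested, 830 were higher in the lines than in MEF (4.95%) and 1488 were lower (8.87%). To be tested, a gene had to reach 1 CPM in at least 2 libraries. The 2 lines alone could admit a gene in this way, but the single MEF library alone could not. This left out 379 genes that reached 1 CPM in MEF only, so the higher and lower shares are not on an equal footing. A gene was called higher or lower at an adjusted p under 0.05 in edgeR's quasi-likelihood test with Benjamini-Hochberg adjustment, and 4969 genes had an unadjusted p under 0.05. In all 2318 called genes both lines lay on the same side of MEF. The call itself favours this, because lines on opposite sides give a small mean change and a wide spread. Leaving out 1 library changed the total by more than 1.5 times: it was 1241 without line 11.3, 1425 was the count without line 11.5, 944 and 962 were called without E14 replicate 1 and E14 replicate 2, and 4810 and 4837 without v6.5 replicate 1 and v6.5 replicate 2. With no test, 914 genes (5.45%) were at least 4-fold higher in both lines and 1500 (8.94%) at least 4-fold lower. The median log2 ratio of the lines to MEF was 0.17 over the 15736 tested genes with more than 3 reads in at least 1 of the 3 libraries. Scaling by DESeq2's size factors moved that median by -0.11, and scaling by total reads alone moved it by 0.38. Log2 ratios of gene groups below are read against 0.17, and their counts against 4.95% higher and 8.87% lower. In bulk RNA, fewer cells of a kind and less RNA per cell cannot be told apart, here and in every group below.

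**Figure D1:**
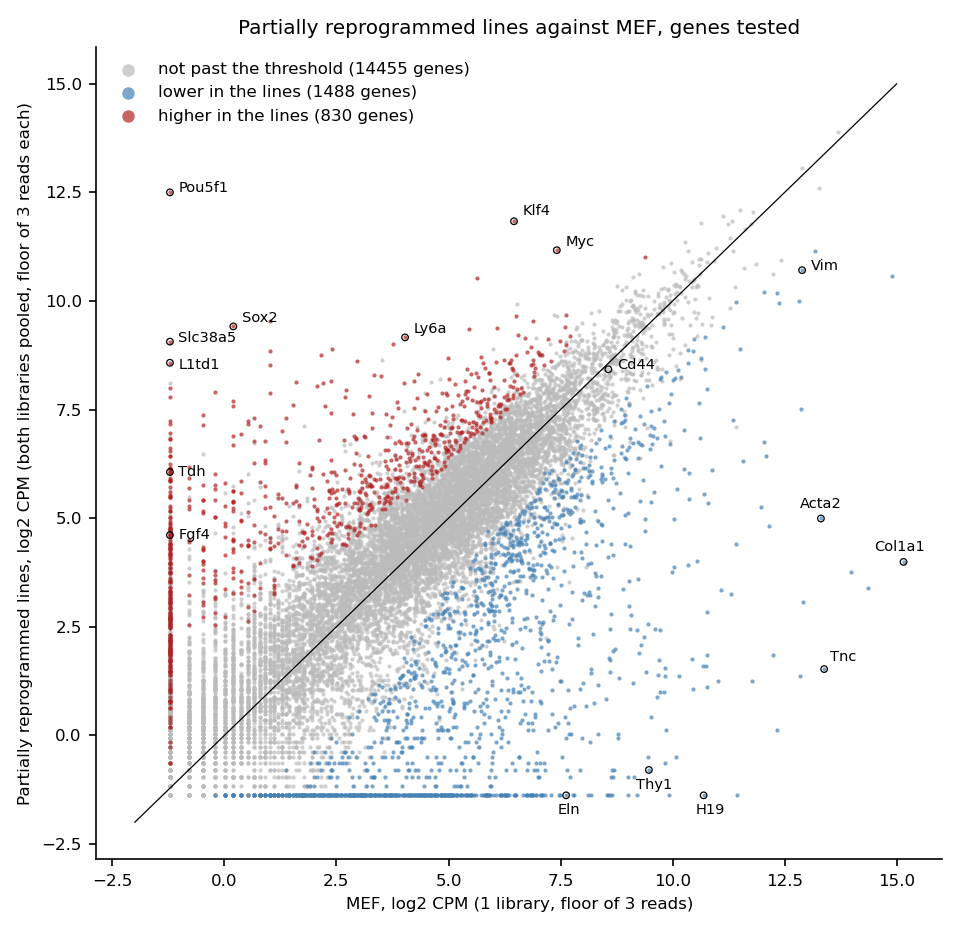
Log2 CPM of the 16773 tested genes in the partially reprogrammed lines (vertical axis, both libraries pooled, floor of 3 reads each) against MEF (horizontal axis, 1 library, floor of 3 reads), with the 830 higher genes in red, the 1488 lower genes in blue and equal levels on the line. Pou5f1, at 0 reads in MEF, stands at the left edge far above the line, and Col1a1, Acta2 and Tnc stand at the lower right.

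All 4 reprogramming factors were higher in the lines, beside 4.95% of all genes tested. Pou5f1 had 6491 TPM in line 11.3 and 6911 TPM in line 11.5, against 2.04 TPM in MEF, where no read was counted. It was 13487-fold higher, adjusted p = 0.000759, with the MEF library set to the floor of 3 reads. Ratios given below as "at least" were bounds at that floor and not confidence limits. For higher genes with no read in MEF, such a ratio can exceed the lower end of the exact counting interval. That lower end was 10968-fold for Pou5f1. The TPM of a gene with 0 reads are small estimates above 0 rather than a measured level. Fold changes below were fitted to reads, and for genes with few reads the ratio of the TPM printed can be smaller. Klf4 had 2495 TPM in line 11.3 and 2533 TPM in line 11.5, against 56.3 TPM in MEF (log2 fold change 5.37 ± 0.90 (SE), adjusted p = 0.0148). Each SE printed was derived from the test, as the absolute log2 fold change divided by the square root of the F statistic. It is therefore not a separate measure of spread. Myc, which fibroblasts also express, had 1405 TPM in line 11.3 and 2002 TPM in line 11.5, against 112 TPM in MEF (log2 fold change 3.75 ± 0.44 (SE), adjusted p = 0.00521). Sox2 was the factor whose level differed most between the lines, at 962 TPM in line 11.3 and 166 TPM in line 11.5, against 1.14 TPM in MEF (log2 fold change 9.23 ± 1.90 (SE), adjusted p = 0.0273). Both lines were above every mESC library for Pou5f1 (793 to 1223 TPM in mESC), Klf4 (73.3 to 176 TPM in mESC) and Myc (15.2 to 25.0 TPM in mESC). For Sox2, line 11.3 was above the highest mESC library and line 11.5 below the lowest (204 to 647 TPM in mESC). miPS had 1152 TPM of Pou5f1, 247 of Klf4, 55.0 of Myc and 358 of Sox2. Reads of the retroviral copies and of the cells' own genes cannot be told apart in these gene totals. Klf4 was not called without line 11.3 (adjusted p = 0.0508). Sox2 was not called without E14 replicate 1 or E14 replicate 2 (adjusted p = 0.0518 and 0.0534).

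The pluripotency network was raised in part. Of its 36 tested members 13 rose and 2 fell (median log2 ratio 2.75, over the 26 with a ratio), beside 4.95% higher and 8.87% lower of all genes tested. The same 36 held 30 members with at least 10 TPM in all 4 mESC libraries. Of those, 9 also reached 10 TPM in both lines, and 8 had 3 reads or fewer in each line. L1td1, an RNA-binding protein of pluripotent cells, had 201 TPM in line 11.3 and 221 TPM in line 11.5, against 0.667 TPM in MEF (at least 889-fold higher, adjusted p = 0.00160), and the lines lay within the mESC range of 188 to 365 TPM. Tdh, the threonine dehydrogenase on which mouse embryonic stem cells depend, had 54.2 TPM in line 11.3 and 74.2 TPM in line 11.5, against 0.601 TPM in MEF (at least 155-fold higher, adjusted p = 0.00279), below its 227 to 503 TPM in mESC. Fgf4, a growth factor of the inner cell mass that Oct4 and Sox2 switch on, had 35.1 TPM in line 11.3 and 32.8 TPM in line 11.5, against 0.174 TPM in MEF (at least 56.8-fold higher, adjusted p = 0.00282, 44.8 to 80.5 TPM in mESC). For these 3 genes the lines were close to each other. The nuclear receptor gene Nr0b1 had 85.7 TPM in line 11.3 and 27.0 TPM in line 11.5, against 0.0935 TPM in MEF (at least 177-fold higher, adjusted p = 0.0299). Sall4, a zinc finger factor, had 46.1 TPM in line 11.3 and 12.1 TPM in line 11.5, against 1.41 TPM in MEF (at least 122-fold higher, adjusted p = 0.0195). Tdgf1, the Nodal co-receptor also called Cripto, had 18.3 TPM in line 11.3 and 90.0 TPM in line 11.5, against 0.362 TPM in MEF (at least 83.5-fold higher, adjusted p = 0.0167). Line 11.3 was the higher of the lines for Nr0b1 and Sall4, and line 11.5 for Tdgf1, with MEF at 0 reads for all 3. Among members named after their values were seen, Fbxo15 had 53.5 and 93.2 TPM in the lines against 0.448 TPM in MEF (679-fold higher in scaled reads, 95% counting interval 122 to 26851, adjusted p = 0.00267). The nuclear receptor gene Nr5a2 had 26.3 and 7.52 TPM in the lines against 0.216 TPM in MEF (at least 63.3-fold higher, adjusted p = 0.0129). Nr0b1 was not called without line 11.3, E14 replicate 1 or E14 replicate 2 (adjusted p = 0.0665, 0.0557 and 0.0571).

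The members that did not pass the test included genes that define embryonic stem cells. Nanog, the homeobox factor that marks full reprogramming, had 0.951 TPM in line 11.3 and 1.67 TPM in line 11.5, against 1.06 TPM in MEF (2 and 7 reads in the lines against 3 in MEF), beside 231 to 331 TPM in mESC and 339 TPM in miPS. Esrrb, an orphan nuclear receptor, had 0.618 and 0.534 TPM in the lines against 0.521 TPM in MEF, beside 81.7 to 309 TPM in mESC. Dppa5a had 4.29 and 1.01 TPM in the lines against 0.266 TPM in MEF, beside 1242 to 3358 TPM in mESC. In both lines these genes stood far below each mESC library. Lin28a, an RNA-binding protein that blocks let-7 maturation, Tcl1, Prdm14 and Lefty2 had 0 reads in the lines and in MEF, and Utf1 had 1 and 8 reads in the lines against 0 in MEF. For Lin28a the mESC libraries had 192 to 406 TPM. Zfp42 (Rex1) reached 1.59 and 0.971 TPM in the lines against 0.314 TPM in MEF, beside 120.4 to 639.6 TPM in mESC. The transcription factors Tbx3 and Klf2 fell, Tbx3 to 0.301 and 0.422 TPM in the lines against 19.6 TPM in MEF (666-fold lower in scaled reads, 95% counting interval 119 to 26403, adjusted p = 0.00762) and Klf2 to 2.95 and 1.84 TPM in the lines against 52.2 TPM in MEF (log2 fold change -4.71 ± 0.59 (SE), adjusted p = 0.00608), although their levels in mESC were 9.66 to 62.2 and 127 to 317 TPM. Tbx3 was not called without line 11.3 (adjusted p = 0.0517).

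**Figure D2:**
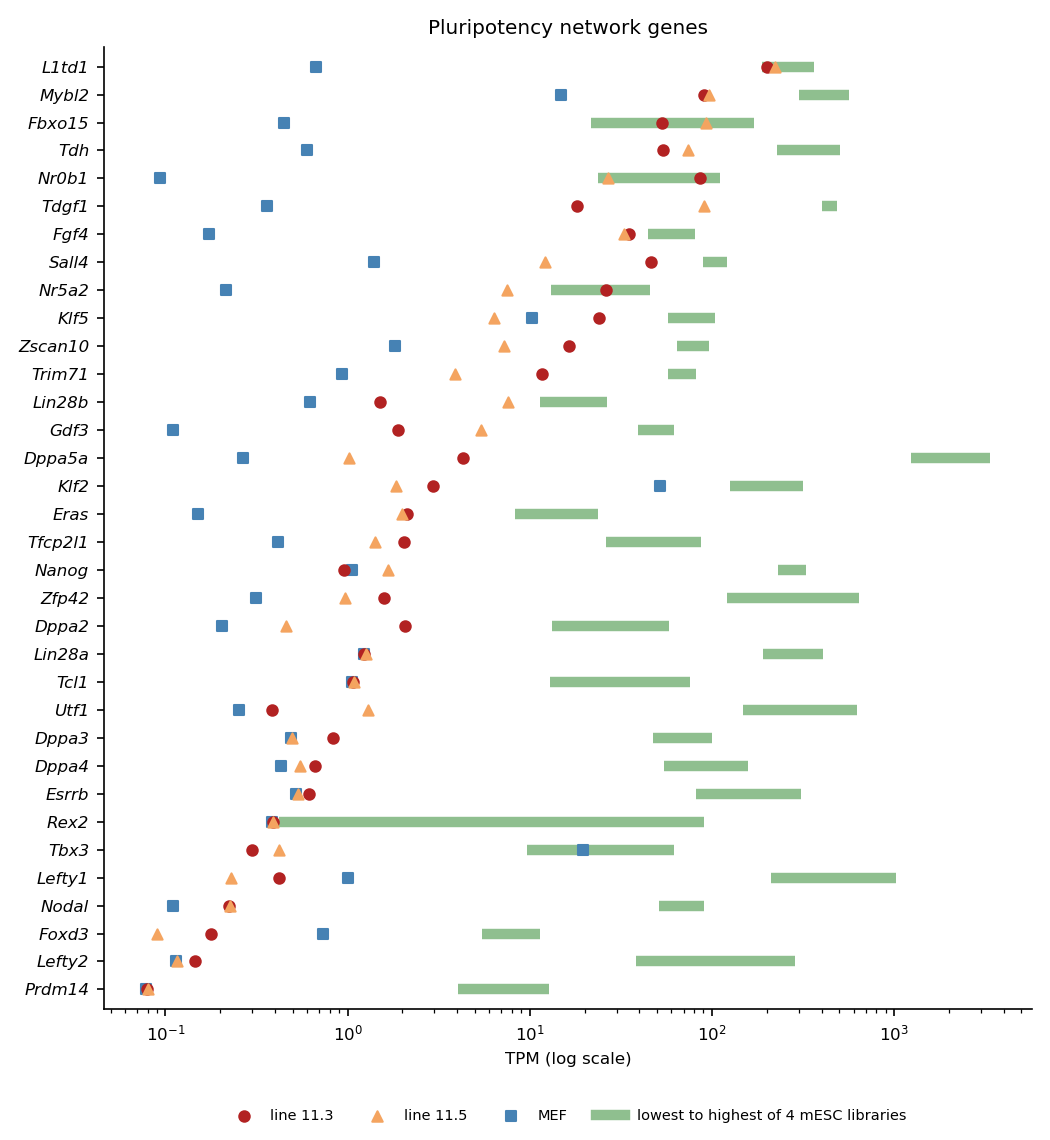
TPM on a log scale of the pluripotency network members reported here in line 11.3 (circles), line 11.5 (triangles) and MEF (squares), with green bars from the lowest to the highest of the 4 mESC libraries, ordered by the mean of the lines; of Rex2, which has 2 loci, 1 is drawn. L1td1 at the top lies at its mESC bar in both lines, and Nanog, Esrrb and Dppa5a lie far to the left of theirs. Values of genes with 0 reads are small estimates above 0.

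Besides the reprogramming and pluripotency genes, 8 genes at the top of the ranking by fold change are given here, each with no read in MEF. Slc38a5, an amino acid transporter for glutamine, serine and glycine, had 327 TPM in line 11.3 and 442 TPM in line 11.5, against 0.742 TPM in MEF (at least 1245-fold higher, adjusted p = 0.000990), with 1.12 to 1.66 TPM in mESC. Mal, a membrane raft protein of T cells and epithelia, had 177 TPM in line 11.3 and 187 TPM in line 11.5, against 0.463 TPM in MEF (at least 263-fold higher, adjusted p = 0.00898), with 0.256 to 1.76 TPM in mESC. Ehf, an ETS factor of epithelial cells, had 153 TPM in line 11.3 and 23.6 TPM in line 11.5, against 1.74 TPM in MEF (at least 201-fold higher, adjusted p = 0.0237), with 0.754 to 2.55 TPM in mESC. For these 3 genes both lines were above every mESC library. Nccrp1 had 93.4 and 372 TPM in the lines against 0.132 TPM in MEF (at least 512-fold higher, adjusted p = 0.00950). Aldh3a1, an aldehyde dehydrogenase abundant in the cornea, had 22.7 and 24.9 TPM in the lines against 0.622 TPM in MEF (at least 75.6-fold higher, adjusted p = 0.00453). Fgfbp1, a carrier that releases fibroblast growth factors from the matrix, had 287 and 70.0 TPM in the lines against 0.156 TPM in MEF (at least 336-fold higher, adjusted p = 0.00898, 18.9 to 58.5 TPM in mESC). Slc35f2, a solute carrier, had 63.2 and 42.9 TPM in the lines against 0.343 TPM in MEF (at least 137-fold higher, adjusted p = 0.00251). The adhesion protein gene Mpzl2 had 123 and 21.3 TPM in the lines against 0.158 TPM in MEF (at least 134-fold higher, adjusted p = 0.0224). Slc35f2 and Aldh3a1 were similar in both lines, whereas Nccrp1 was higher in line 11.5 and Fgfbp1 and Mpzl2 were higher in line 11.3. Both lines were also above every mESC library for Nccrp1 (1.82 to 3.66 TPM in mESC), Aldh3a1 (0.655 to 1.72 TPM in mESC) and Fgfbp1. For Slc35f2 (24.5 to 59.1 TPM in mESC) and Mpzl2 (14.7 to 23.4 TPM in mESC), line 11.5 lay within the mESC range and line 11.3 above it.

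Epithelial genes, which a fibroblast gains as it turns into an epithelium-like cell, held 11 higher and 3 lower genes of 36 tested (median log2 ratio 2.11, over the 25 with a ratio). The higher genes were 30.6% of the list, beside 4.95% of all genes tested, and the lower ones 8.33%, near the 8.87% of all genes. Summed over the list, TPM were 538 in line 11.3 and 231 in line 11.5, against 293 in MEF, so line 11.5 was not above MEF. Of 22 members with at least 10 TPM in all 4 mESC libraries, 4 also reached 10 TPM in both lines. Another 7 of the 22 had 3 reads or fewer in each line. Dsp, the desmosome protein desmoplakin, had 26.6 TPM in line 11.3 and 20.1 TPM in line 11.5, against 0.670 TPM in MEF (log2 fold change 5.07 ± 0.45 (SE), adjusted p = 0.00256), and both lines were above the highest mESC library (11.8 to 17.7 TPM in mESC). Cdh1 (E-cadherin), the adhesion protein of epithelial junctions, had 1.25 TPM in line 11.3 and 2.92 TPM in line 11.5, against 0.133 TPM in MEF (40.1-fold higher in scaled reads, 95% counting interval 7.02 to 1602, adjusted p = 0.0167), which left both lines far below the 183 to 274 TPM in mESC. Epcam had 6.83 TPM in line 11.3 and 3.37 TPM in line 11.5, against 0.387 TPM in MEF (15.2-fold higher in scaled reads, 95% counting interval 5.04 to 74.7, adjusted p = 0.0255), likewise below its 179.5 to 314 TPM in mESC. Both genes were chosen after their values were seen. The genes that fell included Cdh3 (P-cadherin), with 0.168 and 0.171 TPM in the lines against 52.9 TPM in MEF (at least 355-fold lower, adjusted p = 0.00110). Pkp2 (plakophilin 2) had 3.58 and 1.30 TPM in the lines against 26.8 TPM in MEF (log2 fold change -3.82 ± 0.64 (SE), adjusted p = 0.0150). Krt18, a keratin of simple epithelia, had 0.108 and 0.110 TPM in the lines against 5.80 TPM in MEF (at least 19.8-fold lower, adjusted p = 0.00608). The claudin genes Cldn4 and Cldn7 stayed near 0 in the lines, with 2 and 2 reads in the lines against 1 in MEF for Cldn4 and 2 and 0 reads in the lines against 0 in MEF for Cldn7, beside 94.4 to 429 TPM in mESC for Cldn4. The number of epithelial genes that rose was 4 without E14 replicate 1 or E14 replicate 2. Epcam was not called without E14 replicate 1 or E14 replicate 2 (adjusted p = 0.0598 and 0.0630).

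Integrins and laminins, the receptors and the sheet proteins by which cells hold to a basement membrane, held 3 higher and 10 lower genes of 27 (median log2 ratio -0.37, over the 27 with a ratio). That is 11.1% higher and 37% lower, beside 4.95% and 8.87% of all genes tested. Itgb4, the integrin of hemidesmosomes, had 43.4 TPM in line 11.3 and 70.3 TPM in line 11.5, against 1.97 TPM in MEF (log2 fold change 5.23 ± 0.71 (SE), adjusted p = 0.00758). Lama3, a chain of the laminin that Itgb4 binds, had 6.60 TPM in line 11.3 and 49.3 TPM in line 11.5, against 0.141 TPM in MEF (864-fold higher in scaled reads, 95% counting interval 155 to 34158, adjusted p = 0.0236), and was much higher in line 11.5. Itgb7, an integrin known from lymphocytes, had 7.21 and 26.9 TPM in the lines against 0.670 TPM in MEF (log2 fold change 5.95 ± 1.40 (SE), adjusted p = 0.0412). The integrins of fibroblasts fell. Itga11, a collagen receptor, had 0.161 and 0.122 TPM in the lines against 59.6 TPM in MEF (1148-fold lower in scaled reads, 95% counting interval 392 to 5572, adjusted p = 0.000990). Itga5, of the fibronectin receptor, had 16.6 and 30.7 TPM in the lines against 568 TPM in MEF (log2 fold change -4.79 ± 0.50 (SE), adjusted p = 0.00367). Itgb3 had 0.886 and 0.806 TPM in the lines against 48.8 TPM in MEF (log2 fold change -6.48 ± 0.47 (SE), adjusted p = 0.00162). Itga9 had 3.62 and 3.84 TPM in the lines against 11.2 TPM in MEF (15 and 17 reads in the lines against 181 in MEF; log2 fold change -3.66 ± 0.40 (SE), adjusted p = 0.00404). All of these integrins were lower in both lines than in MEF by more than the lines differed from each other. Itgb1, the chain shared by many integrins, had 137 and 194 TPM in the lines against 687 TPM in MEF (log2 fold change -2.29 ± 0.36 (SE), adjusted p = 0.0121). The laminin gene Lama4 was not called, at 104 and 112 TPM in the lines against 37.3 TPM in MEF. The number of integrins and laminins that rose was 1 without E14 replicate 1 and 7 without v6.5 replicate 1 or v6.5 replicate 2. Lama3 was not called without E14 replicate 1 (adjusted p = 0.0500). Itgb7 was not called without line 11.5, E14 replicate 1 or E14 replicate 2 (adjusted p = 0.0735, 0.0807 and 0.0827). Itgb1 was not called without line 11.3 (adjusted p = 0.0670).

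Genes of the fibroblast matrix were lower in the lines almost throughout the list. Of 44 tested, 0 rose and 39 fell, with a median log2 ratio of -7.17 beside 0.17 for all genes tested. Summed over the list, TPM were 1473 in line 11.3 and 1392 in line 11.5, against 48731 in MEF. Col1a1, the main chain of type I collagen, had 8.33 TPM in line 11.3 and 0.0711 TPM in line 11.5, against 8103 TPM in MEF (249 and 0 reads in the lines against 254670 in MEF; log2 fold change -11.12 ± 2.29 (SE), adjusted p = 0.0273). Its partner Col1a2 had 6.96 TPM in line 11.3 and 0.895 TPM in line 11.5, against 4813 TPM in MEF (log2 fold change -10.94 ± 1.32 (SE), adjusted p = 0.00559). Col3a1, of type III collagen, had 0.685 TPM in line 11.3 and 0.121 TPM in line 11.5, against 1168 TPM in MEF (log2 fold change -12.18 ± 1.42 (SE), adjusted p = 0.00505). MEF stood above both lines by a wide margin for each collagen, and line 11.3 kept more of the reads of all 3 than line 11.5. Tnc, the matrix protein tenascin C, had 1.05 and 0.691 TPM in the lines against 1799 TPM in MEF (log2 fold change -11.84 ± 0.59 (SE), adjusted p = 0.000990). Col5a1 had 0.961 and 0.857 TPM in the lines against 1539 TPM in MEF (log2 fold change -11.47 ± 0.72 (SE), adjusted p = 0.00122). Postn (periostin) had 0.698 and 0.926 TPM in the lines against 392 TPM in MEF (7537-fold lower in scaled reads, 95% counting interval 2086 to 62252, adjusted p = 0.00110). Eln, the elastic fibre protein elastin, had 0.0547 and 0.0556 TPM in the lines against 74.7 TPM in MEF (0 and 0 reads in the lines against 1377 in MEF; at least 515-fold lower, adjusted p = 0.00128). Falls were smaller for Fn1 (fibronectin), with 182 and 316 TPM in the lines against 4229 TPM in MEF (log2 fold change -4.33 ± 0.37 (SE), adjusted p = 0.00248). Sparc, a matrix protein that binds collagen, had 126 and 96.0 TPM in the lines against 3758 TPM in MEF (log2 fold change -5.30 ± 0.36 (SE), adjusted p = 0.00134). The 5 tested members that did not pass included Pcolce, which speeds procollagen processing, with 472 and 551 TPM in the lines against 685 TPM in MEF, Plod1 with 63.1 and 76.4 TPM in the lines against 68.9 TPM in MEF, and Loxl4 with 151 and 61.5 TPM in the lines against 26.8 TPM in MEF. Col1a1 was not called without E14 replicate 1 or E14 replicate 2 (adjusted p = 0.0617 and 0.0617). In mESC, grown on feeder fibroblasts, Col3a1 had 11.3 to 29.0 TPM. The lines were grown without feeders, and the part of feeder cells in these levels was not tested.

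Contractile genes and those of actin stress fibres followed the same direction, with 0 of 33 higher and 28 lower (median log2 ratio -4.08, over the 33 with a ratio). Their summed TPM were 2456 and 3672 in the lines, against 33453 in MEF. Acta2, the smooth muscle actin of activated fibroblasts, had 23.1 TPM in line 11.3 and 33.7 TPM in line 11.5, against 7896 TPM in MEF (log2 fold change -8.33 ± 0.48 (SE), adjusted p = 0.00110). Tagln, an actin-binding protein, had 5.19 TPM in line 11.3 and 1.36 TPM in line 11.5, against 4082 TPM in MEF (log2 fold change -10.52 ± 0.86 (SE), adjusted p = 0.00216). For both genes each line lay below the MEF library, as in every gene called lower. Myl9, a myosin light chain, had 1.78 and 1.25 TPM in the lines against 778 TPM in MEF (log2 fold change -10.08 ± 0.42 (SE), adjusted p = 0.000773). Cnn1 (calponin 1) had 0.662 and 0.269 TPM in the lines against 368 TPM in MEF (2035-fold lower in scaled reads, 95% counting interval 695 to 9872, adjusted p = 0.00202). Lmod1 (leiomodin 1) had 0.145 and 0.147 TPM in the lines against 54.2 TPM in MEF (at least 282-fold lower, adjusted p = 0.00169). Myh11, a smooth muscle myosin heavy chain, had 0.195 and 0.170 TPM in the lines against 12.7 TPM in MEF (1173-fold lower in scaled reads, 95% counting interval 209.7 to 46428, adjusted p = 0.00254). The 5 members that did not pass were Srf, the factor that switches many of these genes on, with 59.1 and 55.2 TPM in the lines against 133 TPM in MEF, Cnn3, Mylk, Des and Actg2. Actg2 split the lines, with 9.55 TPM in line 11.3 and 258 TPM in line 11.5, against 419 TPM in MEF.

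Secreted proteases and their inhibitors fell as well, 23 of 27, and 0 rose (median log2 ratio -5.70, over the 27 with a ratio). Plat, a plasminogen activator, had 0.345 TPM in line 11.3 and 0.307 TPM in line 11.5, against 99.3 TPM in MEF (log2 fold change -8.02 ± 0.42 (SE), adjusted p = 0.000990). Serpinf1 had 4.21 and 1.83 TPM in the lines against 864 TPM in MEF (log2 fold change -9.71 ± 0.84 (SE), adjusted p = 0.00254). Mmp2 (gelatinase A) had 1.45 and 2.54 TPM in the lines against 276 TPM in MEF (log2 fold change -7.36 ± 0.41 (SE), adjusted p = 0.00109). Mmp9 and Mmp3 had 0 reads in both lines, with 0.487 and 0.495 TPM in the lines against 31.8 TPM in MEF for Mmp9 (at least 187-fold lower, adjusted p = 0.00355) and 0.0909 and 0.0923 TPM in the lines against 12.6 TPM in MEF for Mmp3 (at least 52.0-fold lower, adjusted p = 0.0241). Timp1 had a smaller fall, at 164 and 360.0 TPM in the lines against 1038 TPM in MEF (log2 fold change -2.19 ± 0.50 (SE), adjusted p = 0.0364). Mmp3 was not called without line 11.3, line 11.5, E14 replicate 1 or E14 replicate 2 (adjusted p = 0.0802, 0.0800, 0.0544 and 0.0531). Timp1 was not called without line 11.3, E14 replicate 1 or E14 replicate 2 (adjusted p = 0.111, 0.0908 and 0.0899).

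Of the transforming growth factor beta pathway and the CCN family, 17 of 25 genes fell and 0 rose (median log2 ratio -4.48, over the 25 with a ratio). The ligand gene Tgfb1 had 7.22 TPM in line 11.3 and 9.81 TPM in line 11.5, against 206 TPM in MEF (log2 fold change -4.92 ± 0.49 (SE), adjusted p = 0.00325). Inhba, which encodes a subunit of activin, had 0.454 and 0.183 TPM in the lines against 348 TPM in MEF (2666-fold lower in scaled reads, 95% counting interval 912 to 12936, adjusted p = 0.00189). Ltbp2, a latent TGF beta binding protein of microfibrils, had 2.28 and 1.24 TPM in the lines against 235 TPM in MEF (log2 fold change -8.46 ± 0.75 (SE), adjusted p = 0.00256). The CCN gene Wisp1 had 0.571 and 0.460 TPM in the lines against 303 TPM in MEF (6239-fold lower in scaled reads, 95% counting interval 1119 to 246500, adjusted p = 0.00278). Nov, of the same family, had 0.111 and 0.226 TPM in the lines against 43.2 TPM in MEF (875-fold lower in scaled reads, 95% counting interval 156 to 34643, adjusted p = 0.00528). Thbs1 (thrombospondin 1), which can activate TGF beta, had 6.35 and 2.10 TPM in the lines against 4338 TPM in MEF (log2 fold change -10.19 ± 0.80 (SE), adjusted p = 0.00198). The receptor gene Tgfbr2 was not called, at 44.5 and 46.8 TPM in the lines against 55.4 TPM in MEF, nor was Tgfbr1, at 2.84 and 5.46 TPM in the lines against 15.6 TPM in MEF.

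Cytokines and growth factors that fibroblasts secrete gave 22 lower and 0 higher genes of 31 tested (median log2 ratio -4.67, over the 31 with a ratio). Cxcl12, a chemokine that draws blood and germ cells, had 1.27 TPM in line 11.3 and 0.498 TPM in line 11.5, against 252 TPM in MEF (1137-fold lower in scaled reads, 95% counting interval 444 to 4178, adjusted p = 0.00372). Igf2, a fetal growth factor, had 1.43 TPM in line 11.3 and 1.62 TPM in line 11.5, against 1311 TPM in MEF (7242-fold lower in scaled reads, 95% counting interval 3326 to 19735, adjusted p = 0.00110). Spp1 (osteopontin) had 6.56 TPM in line 11.3 and 1.75 TPM in line 11.5, against 1934 TPM in MEF (log2 fold change -9.74 ± 1.33 (SE), adjusted p = 0.00773). For all 3 both lines were below 10 TPM, far under MEF. Igfbp5, which binds insulin-like growth factors, had 0.115 and 0.348 TPM in the lines against 98.6 TPM in MEF (log2 fold change -9.62 ± 1.17 (SE), adjusted p = 0.00566). Csf1, the growth factor of macrophages, had 3.71 and 4.23 TPM in the lines against 222 TPM in MEF (log2 fold change -6.87 ± 0.34 (SE), adjusted p = 0.000990). Ptn (pleiotrophin), at the top of the lower genes, had 0.821 and 0.835 TPM in the lines against 944 TPM in MEF (at least 1533-fold lower, adjusted p = 0.00197). Il1rl1, the receptor of interleukin 33, had 0.809 and 0.821 TPM in the lines against 88.1 TPM in MEF (at least 461-fold lower, adjusted p = 0.00521). Neither gene is on this list, and both were among the 12 genes with the largest falls and at least 20 TPM in MEF, as were Mn1 and Cacna1g. Mn1, a transcriptional regulator, had 0.0358 and 0.0362 TPM in the lines against 22.2 TPM in MEF (at least 235-fold lower, adjusted p = 0.00256). Cacna1g, a calcium channel gene, had 0.441 and 0.448 TPM in the lines against 28.7 TPM in MEF (at least 411-fold lower, adjusted p = 0.00167). Cxcl2 had 0.421 and 0.427 TPM in the lines against 11.5 TPM in MEF (at least 19.4-fold lower, adjusted p = 0.0415), and was not called without line 11.3, line 11.5, E14 replicate 1 or E14 replicate 2 (adjusted p = 0.118, 0.116, 0.0819 and 0.0828). The number of lower genes in this list was 14 without E14 replicate 1 or E14 replicate 2.

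Markers of macrophages and blood cells moved in the same direction: 9 of 14 tested were lower (64.3%, beside 8.87% of all genes tested) and 0 were higher. C1qa, C1qb and C1qc (complement), Csf1r and Tyrobp had 0 reads in both lines, with 22.5, 33.6, 35.0, 9.83 and 22.0 TPM in MEF. The part of such cells in the fall of cytokine and protease genes was not tested. Lyz2, a lysozyme of macrophages, had 0.231 and 0.702 TPM in the lines against 35.3 TPM in MEF (173-fold lower in scaled reads, 95% counting interval 47.0 to 1439, adjusted p = 0.0419). Over the whole marker list, TPM summed to 211 and 76.8 in the lines, against 246 in MEF, and Laptm5 made up most of it in line 11.3, with 177 and 49.6 TPM in the lines against 22.1 TPM in MEF. The number of lower macrophage markers was 3 without line 11.3, E14 replicate 1 or E14 replicate 2 and 4 without line 11.5. Lyz2, Tyrobp and C1qc were each not called without line 11.3, line 11.5, E14 replicate 1 or E14 replicate 2 (adjusted p from 0.0534 to 0.167).

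**Figure D3:**
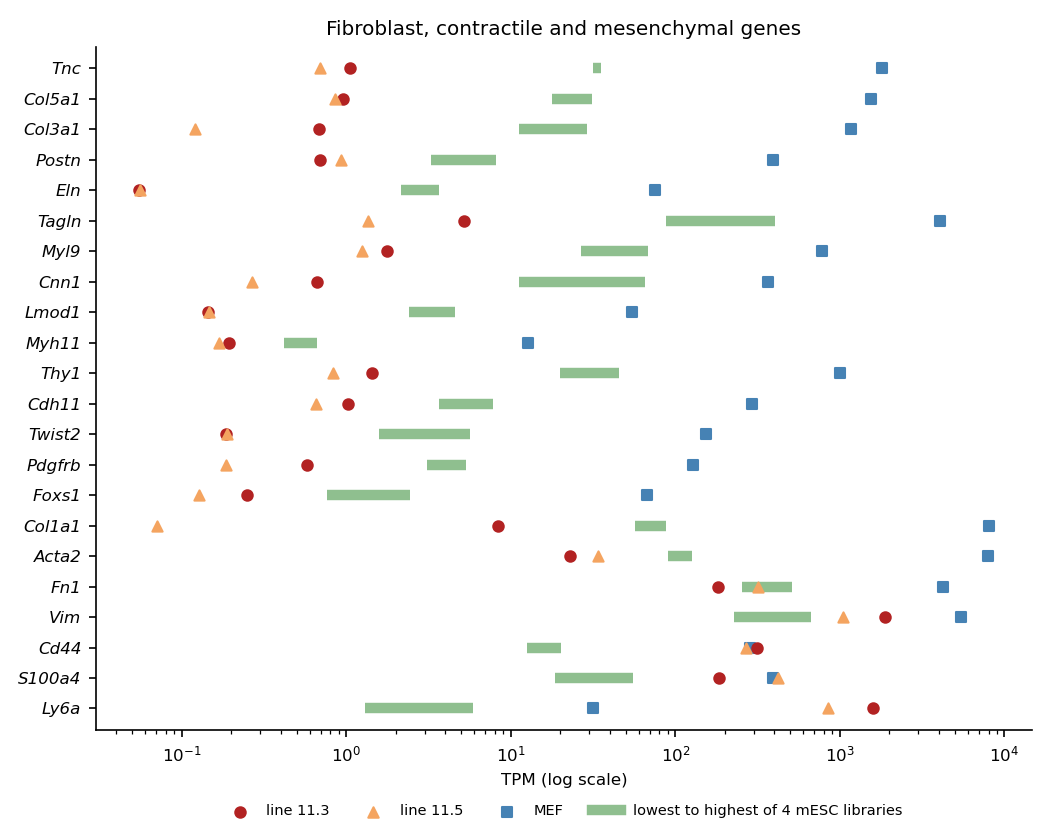
TPM on a log scale of named matrix, contractile and mesenchymal genes in line 11.3 (circles), line 11.5 (triangles) and MEF (squares), with green bars from the lowest to the highest of the 4 mESC libraries. Nearly every MEF square stands far to the right of both line symbols; Cd44 and S100a4 are exceptions where the symbols lie near each other, and for Ly6a both lines stand to the right of MEF.

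Mesenchymal regulators and surface proteins gave fewer calls. 1 of 34 tested rose and 14 fell (median log2 ratio -2.29, over the 34 with a ratio). That is 2.94% higher and 41.2% lower, beside 4.95% and 8.87% of all genes tested. Thy1, the surface protein by which fibroblasts are sorted, had 1.43 TPM in line 11.3 and 0.832 TPM in line 11.5, against 1006 TPM in MEF (log2 fold change -10.24 ± 0.61 (SE), adjusted p = 0.00110). Pdgfrb, a receptor for platelet-derived growth factor, had 0.581 TPM in line 11.3 and 0.186 TPM in line 11.5, against 128 TPM in MEF (log2 fold change -9.46 ± 1.05 (SE), adjusted p = 0.00426). Cdh11, a cadherin of mesenchyme, had 1.02 and 0.656 TPM in the lines against 293 TPM in MEF (log2 fold change -8.72 ± 0.57 (SE), adjusted p = 0.00129). The transcription factor genes Twist2 and Foxs1 also fell. Twist2 had 0.187 and 0.190 TPM in the lines against 154 TPM in MEF (at least 311-fold lower, adjusted p = 0.00556). Foxs1 had 0.251 and 0.127 TPM in the lines against 66.9 TPM in MEF (1207-fold lower in scaled reads, 95% counting interval 216 to 47757, adjusted p = 0.00254). Other regulators of the mesenchymal state were not called. Prrx1 had 3.30 TPM in line 11.3 and 56.1 TPM in line 11.5, against 173 TPM in MEF (adjusted p = 0.242). Snai2 had 1.70 TPM in line 11.3 and 18.1 TPM in line 11.5, against 36.2 TPM in MEF (adjusted p = 0.269). Twist1 had 8.12 TPM in line 11.3 and 22.9 TPM in line 11.5, against 60.2 TPM in MEF (adjusted p = 0.0693). In each of these 3 genes line 11.5 lay nearer to MEF than line 11.3 did. Cd44, a receptor for hyaluronan, had 316 TPM in line 11.3 and 269.6 TPM in line 11.5, against 283 TPM in MEF (log2 fold change -0.14 ± 0.34 (SE), adjusted p = 0.857), while mESC had 12.5 to 20.2 TPM. S100a4 had 183 TPM in line 11.3 and 423 TPM in line 11.5, against 394 TPM in MEF (log2 fold change -0.59 ± 0.63 (SE), adjusted p = 0.607). Vim (vimentin), the intermediate filament of mesenchyme, fell to 1872 and 1041 TPM in the lines against 5416 TPM in MEF (log2 fold change -2.17 ± 0.41 (SE), adjusted p = 0.0218), which was still above its 226 to 664 TPM in mESC. Ly6a (Sca-1) rose, with 1597 TPM in line 11.3 and 841 TPM in line 11.5, against 31.4 TPM in MEF (log2 fold change 5.14 ± 1.09 (SE), adjusted p = 0.0297). Ly6a was not called without line 11.3, line 11.5, E14 replicate 1 or E14 replicate 2 (adjusted p = 0.0900, 0.0602, 0.0732 and 0.0717). Vim was not called without line 11.5, E14 replicate 1 or E14 replicate 2 (adjusted p = 0.0749, 0.0681 and 0.0688). Of the fibroblast markers reported here, S100a4 and Prrx1 were not called. Vim, Thy1, Pdgfrb, Twist2, Dcn, Col1a1, Col1a2 and Col3a1 were lower in the lines. Pdgfra was lower too (0.545 and 0.653 TPM in the lines against 13.8 TPM in MEF, log2 fold change -6.03 ± 0.66 (SE), adjusted p = 0.00402).

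Hox genes, which record the position along the body that a fibroblast came from, had 26 tested members. Of these 0 rose and 1 fell (median log2 ratio -0.98, over the 25 with a ratio), which is 0% higher and 3.85% lower beside 4.95% and 8.87% of all genes tested. That gene, Hoxc6, had 0.922 TPM in line 11.3 and 2.10 TPM in line 11.5, against 20.9 TPM in MEF (49.4-fold lower in scaled reads, 95% counting interval 20.5 to 155, adjusted p = 0.0465). It was not called without line 11.3, line 11.5, E14 replicate 1 or E14 replicate 2 (adjusted p = 0.126, 0.0657, 0.104 and 0.101). Another 17 Hox and positional genes reached 1 CPM in fewer than 2 libraries and were not tested, and 12 of these were at least 4-fold lower in both lines. Among those 12, Hoxb9 had 0 and 1 reads in the lines against 200 in MEF and Hoxc8 5 and 5 reads in the lines against 116 in MEF. Hoxd13, a gene of the ends of limbs, was close to MEF in line 11.3 and lower in line 11.5, with 36.3 TPM in line 11.3 and 4.77 TPM in line 11.5, against 34.3 TPM in MEF. Hoxd9 had 10.3 and 5.62 TPM in the lines against 1.96 TPM in MEF and Hoxb13 2.95 and 3.27 TPM in the lines against 0.798 TPM in MEF, neither of which passed the test. In all, 379 genes reached 1 CPM in MEF and in no other library and so were left out by the filter.

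Of 38 genes of DNA replication and mitosis tested, 21 rose and 0 fell (55.3% higher, beside 4.95% of all genes tested), and 17 did not pass the test (median log2 ratio 2.02, over the 38 with a ratio). Mcm10, which helps to load the replication fork, had 43.8 TPM in line 11.3 and 51.1 TPM in line 11.5, against 4.63 TPM in MEF (log2 fold change 3.25 ± 0.47 (SE), adjusted p = 0.00931). Mcm5, a subunit of the replicative helicase, had 303 TPM in line 11.3 and 273 TPM in line 11.5, against 39.9 TPM in MEF (log2 fold change 2.67 ± 0.43 (SE), adjusted p = 0.0125). Mcm7, another subunit, had 446 and 299 TPM in the lines against 56.2 TPM in MEF (log2 fold change 2.67 ± 0.47 (SE), adjusted p = 0.0169). The sliding clamp gene Pcna had 439 and 421 TPM in the lines against 64.8 TPM in MEF (log2 fold change 2.55 ± 0.34 (SE), adjusted p = 0.00708). The polymerase gene Pole had 56.1 and 47.7 TPM in the lines against 8.05 TPM in MEF (log2 fold change 2.79 ± 0.36 (SE), adjusted p = 0.00670). Gins1, of the helicase complex, had 36.5 and 46.8 TPM in the lines against 5.15 TPM in MEF (log2 fold change 3.01 ± 0.44 (SE), adjusted p = 0.00913). The lines were close to each other for these genes and stood in or near the range of mESC, which for Pcna was 285 to 548 TPM. Mki67, the antigen Ki-67, had 81.4 TPM in line 11.3 and 114 TPM in line 11.5, against 17.3 TPM in MEF, and missed the threshold (adjusted p = 0.0545). The number of higher genes in this list was 9 without line 11.3, 10 without line 11.5, 7 without E14 replicate 1, 8 without E14 replicate 2 and 35 without v6.5 replicate 1 or v6.5 replicate 2. Mcm7 was not called without E14 replicate 1 or E14 replicate 2 (adjusted p = 0.0544 and 0.0570). Gins1 was not called without E14 replicate 1 (adjusted p = 0.0501).

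Inhibitors of the cell cycle and targets of p53 gave 1 higher and 6 lower genes of 27 (median log2 ratio -0.99, over the 27 with a ratio). The higher share, 3.7%, was below the 4.95% of all genes tested, and the lower share was 22.2%, beside 8.87%. Cdkn2b (p15) had 3.82 TPM in line 11.3 and 2.74 TPM in line 11.5, against 179 TPM in MEF (log2 fold change -6.05 ± 0.71 (SE), adjusted p = 0.00527). Gas1, a surface protein of resting fibroblasts, had 1.85 and 0.953 TPM in the lines against 40.0 TPM in MEF (log2 fold change -5.29 ± 0.66 (SE), adjusted p = 0.00608). Btg2, which slows division, had 9.20 and 6.83 TPM in the lines against 141 TPM in MEF (log2 fold change -4.35 ± 0.39 (SE), adjusted p = 0.00256). Gadd45g, which responds to stress, had 17.3 and 5.55 TPM in the lines against 182 TPM in MEF (log2 fold change -4.20 ± 0.79 (SE), adjusted p = 0.0210). Perp, a desmosome protein that p53 and p63 switch on, had 447 and 343 TPM in the lines against 5.91 TPM in MEF (log2 fold change 5.92 ± 1.23 (SE), adjusted p = 0.0282), with both lines above every mESC library (8.28 to 52.5 TPM in mESC). Cdkn2a, the locus of p16 and p19Arf, was not called, with 116 TPM in line 11.3 and 56.1 TPM in line 11.5, against 314 TPM in MEF (adjusted p = 0.0673). Cdkn1a (p21) was not called either, with 299.8 TPM in line 11.3 and 208 TPM in line 11.5, against 446 TPM in MEF (adjusted p = 0.182). The number of lower genes here was 12 without v6.5 replicate 1 or v6.5 replicate 2. Perp was not called without line 11.3, line 11.5, E14 replicate 1 or E14 replicate 2 (adjusted p = 0.0837, 0.0657, 0.0548 and 0.0570). Gadd45g was not called without line 11.5 (adjusted p = 0.0554).

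Among enzymes of DNA methylation 4 of 16 tested genes rose and 0 fell (median log2 ratio 0.37, over the 15 with a ratio). The higher share was 25%, beside 4.95% of all genes tested. The maintenance methyltransferase gene Dnmt1 had 204 TPM in line 11.3 and 192 TPM in line 11.5, against 42.2 TPM in MEF (log2 fold change 2.06 ± 0.31 (SE), adjusted p = 0.0101). Its partner Uhrf1, which finds hemimethylated sites, had 378 TPM in line 11.3 and 359 TPM in line 11.5, against 37.5 TPM in MEF (log2 fold change 3.15 ± 0.53 (SE), adjusted p = 0.0146). Tet2, which oxidises methylcytosine, had 63.3 and 35.0 TPM in the lines against 4.41 TPM in MEF (log2 fold change 3.33 ± 0.49 (SE), adjusted p = 0.00923). Tet1, a related enzyme, had 15.9 and 8.25 TPM in the lines against 1.27 TPM in MEF (438 and 215 reads in the lines against 8 in MEF; log2 fold change 5.19 ± 0.83 (SE), adjusted p = 0.0128). Tet1 stayed below every mESC library (26.2 to 123 TPM in mESC), whereas Tet2 was above every mESC library (12.7 to 26.4 TPM in mESC). The de novo methyltransferase gene Dnmt3b was not called, with 3.29 TPM in line 11.3 and 7.05 TPM in line 11.5, against 2.70 TPM in MEF, beside 122 to 296 TPM in mESC. Dnmt3l, a related gene, was not called either. It had 0 and 1 reads in the lines against 3 in MEF, beside 62.9 to 82.9 TPM in mESC. Uhrf1 was not called without line 11.3 (adjusted p = 0.0544). Dnmt1 was not called without E14 replicate 1 or E14 replicate 2 (adjusted p = 0.0548 and 0.0567).

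Of 30 genes of polycomb complexes and histone methylation, 5 rose and 1 fell (16.7% higher and 3.33% lower; median log2 ratio 0.79, over the 30 with a ratio). Phc1, of the complex PRC1, had 167 and 149.7 TPM in the lines against 22.9 TPM in MEF (log2 fold change 2.59 ± 0.55 (SE), adjusted p = 0.0295). Cbx7, also of PRC1, had 9.61 and 6.44 TPM in the lines against 2.37 TPM in MEF (90 and 49 reads in the lines against 3 in MEF; 20.7-fold higher in scaled reads, 95% counting interval 6.92 to 101, adjusted p = 0.0134). Jarid2, which helps to recruit PRC2, had 64.5 and 29.9 TPM in the lines against 8.99 TPM in MEF (log2 fold change 2.74 ± 0.62 (SE), adjusted p = 0.0360). The methyltransferase genes of PRC2 rose too. Ezh1 had 21.4 and 15.5 TPM in the lines against 3.89 TPM in MEF (log2 fold change 2.27 ± 0.47 (SE), adjusted p = 0.0287). Ezh2 had 71.6 and 88.5 TPM in the lines against 18.5 TPM in MEF (log2 fold change 1.85 ± 0.46 (SE), adjusted p = 0.0496). Phc2, a paralogue of Phc1, moved the other way, with 53.9 and 54.1 TPM in the lines against 155 TPM in MEF (log2 fold change -1.79 ± 0.34 (SE), adjusted p = 0.0216). Phc1 and Cbx7 are abundant in mESC, at 378 to 819 and 109 to 144 TPM. The number of higher genes in this list was 2 without line 11.3, 3 without line 11.5, 1 without E14 replicate 1 or E14 replicate 2 and 11 without v6.5 replicate 1 or v6.5 replicate 2. Phc1, Ezh2 and Phc2 were each not called without line 11.3, line 11.5, E14 replicate 1 or E14 replicate 2 (adjusted p from 0.0706 to 0.144). Jarid2 was not called without E14 replicate 1 or E14 replicate 2 (adjusted p = 0.0867 and 0.0881). Ezh1 was not called without line 11.3, E14 replicate 1 or E14 replicate 2 (adjusted p = 0.0850, 0.0983 and 0.0981).

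Of 28 germline genes tested, 1 rose and 0 fell (3.57% higher, near the 4.95% of all genes tested), and 18 loci of the list had 0 reads in both lines. The gene that rose was Stag3, a meiotic cohesin, with 13.6 TPM in line 11.3 and 12.7 TPM in line 11.5, against 4.75 TPM in MEF (161 and 201 reads in the lines against 25 in MEF; log2 fold change 2.68 ± 0.38 (SE), adjusted p = 0.00865). Tex19.1, which acts against retrotransposons, had 1.57 TPM in line 11.3 and 15.3 TPM in line 11.5, against 0.494 TPM in MEF, and was not called.

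Imprinted genes, of which only the copy of a single parent is active, fell in 13 of 29 cases, and 0 rose (median log2 ratio -2.94, over the 27 with a ratio). The lower share was 44.8%, beside 8.87% of all genes tested. H19, a noncoding RNA, had 0.506 TPM in line 11.3 and 0.426 TPM in line 11.5, against 1012 TPM in MEF (1 and 0 reads in the lines against 11553 in MEF; 25917-fold lower in scaled reads, 95% counting interval 4651 to 1023700, adjusted p = 0.000990). Its neighbour Igf2, given above, also fell. Meg3, the noncoding RNA of the Dlk1 cluster, had 2.30 TPM in line 11.3 and 4.54 TPM in line 11.5, against 1301 TPM in MEF (log2 fold change -9.10 ± 0.62 (SE), adjusted p = 0.00134). Dlk1 had 2.14 TPM in line 11.3 and 3.32 TPM in line 11.5, against 123 TPM in MEF (log2 fold change -6.81 ± 0.77 (SE), adjusted p = 0.00446). Mirg, a host transcript of microRNAs in that cluster, had 3.28 and 3.41 TPM in the lines against 48.6 TPM in MEF (8.17 to 32.8 TPM in mESC). In reads it had 0 and 1 in the lines against 415 in MEF (931-fold lower in scaled reads, 95% counting interval 166 to 36858, adjusted p = 0.00267). The fall of Mirg in TPM was thus much smaller than that in reads. Dcn (decorin), which is also on the matrix list, had 0.324 and 0.220 TPM in the lines against 18.6 TPM in MEF (381-fold lower in scaled reads, 95% counting interval 67.5 to 15150, adjusted p = 0.00802). In mESC the levels were 30.1 to 78.5 TPM for H19 and 121 to 451 TPM for Meg3, and in miPS 75.8 and 236 TPM, so that both lines were lower than all of these libraries. The mESC and miPS were grown on feeder fibroblasts and the lines were not. The part of feeder cells in these levels was not tested. Peg3, a zinc finger gene, was not called, with 31.2 and 119 TPM in the lines against 18.6 TPM in MEF.

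Glycolysis and hypoxia genes gave 7 higher and 0 lower genes of 31 (median log2 ratio 0.84, over the 31 with a ratio). The higher share was 22.6%, beside 4.95% of all genes tested. Epas1 (HIF-2 alpha), a hypoxia-inducible transcription factor, had 64.7 TPM in line 11.3 and 168 TPM in line 11.5, against 1.88 TPM in MEF (log2 fold change 5.77 ± 1.00 (SE), adjusted p = 0.0165). Aldoc, an aldolase, had 16.6 TPM in line 11.3 and 14.9 TPM in line 11.5, against 1.44 TPM in MEF (log2 fold change 4.13 ± 0.57 (SE), adjusted p = 0.00796). Pdk1, which holds pyruvate back from mitochondria, had 49.4 and 43.4 TPM in the lines against 7.37 TPM in MEF (log2 fold change 2.58 ± 0.37 (SE), adjusted p = 0.00865). Egln3, a prolyl hydroxylase of hypoxia-inducible factors, had 36.1 and 85.3 TPM in the lines against 5.66 TPM in MEF (log2 fold change 3.25 ± 0.66 (SE), adjusted p = 0.0268). Pfkp, a phosphofructokinase, had 151 and 154 TPM in the lines against 40.8 TPM in MEF (log2 fold change 1.95 ± 0.41 (SE), adjusted p = 0.0290). Hk2, a hexokinase, had 105 and 94.4 TPM in the lines against 32.1 TPM in MEF (log2 fold change 1.46 ± 0.32 (SE), adjusted p = 0.0327). Slc16a3, a lactate exporter, had 120.5 and 108 TPM in the lines against 38.8 TPM in MEF (log2 fold change 1.43 ± 0.34 (SE), adjusted p = 0.0417). Other core enzymes were not called, such as Ldha with 1945 and 1685 TPM in the lines against 846 TPM in MEF and Eno1 with 1187 and 1113 TPM in the lines against 502 TPM in MEF. Slc2a3, the glucose transporter of embryonic stem cells, had 18.6 and 9.77 TPM in the lines against 6.80 TPM in MEF, far below its 444 to 829.8 TPM in mESC. The number of glycolysis and hypoxia genes that rose was 3 without line 11.5, E14 replicate 1 or E14 replicate 2. Egln3 was not called without line 11.5, E14 replicate 1 or E14 replicate 2 (adjusted p = 0.0528, 0.0773 and 0.0762). Pfkp, Hk2 and Slc16a3 were each not called without line 11.3, line 11.5, E14 replicate 1 or E14 replicate 2 (adjusted p from 0.0676 to 0.135).

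Of serine, one carbon and amino acid genes, 5 rose and 3 fell of 24 (20.8% higher and 12.5% lower; median log2 ratio 0.29, over the 24 with a ratio), with Tdh among the higher ones. Cth, which makes cysteine from cystathionine, had 191 TPM in line 11.3 and 164 TPM in line 11.5, against 11.2 TPM in MEF (log2 fold change 3.84 ± 0.39 (SE), adjusted p = 0.00350). Slc1a5, a glutamine transporter, had 136 TPM in line 11.3 and 137 TPM in line 11.5, against 12.4 TPM in MEF (log2 fold change 3.47 ± 0.46 (SE), adjusted p = 0.00733). Mthfd1, of the cytosolic folate cycle, had 322 TPM in line 11.3 and 213 TPM in line 11.5, against 22.9 TPM in MEF (log2 fold change 3.29 ± 0.42 (SE), adjusted p = 0.00660), while Aldh1l2, of the mitochondrial one, fell to 2.01 and 1.47 TPM in the lines against 20.5 TPM in MEF (log2 fold change -3.74 ± 0.45 (SE), adjusted p = 0.00569). Ddit3 (CHOP), a stress-response factor, had 11.6 and 11.8 TPM in the lines against 78.7 TPM in MEF (log2 fold change -3.05 ± 0.38 (SE), adjusted p = 0.00608). Shmt1, which passes the carbon of serine to folate, had 83.1 and 68.5 TPM in the lines against 11.3 TPM in MEF (log2 fold change 2.80 ± 0.44 (SE), adjusted p = 0.0123). Chac1, which breaks down glutathione, had 5.06 and 8.18 TPM in the lines against 40.8 TPM in MEF (log2 fold change -2.85 ± 0.57 (SE), adjusted p = 0.0260), and was not called without line 11.3, line 11.5, E14 replicate 1 or E14 replicate 2 (adjusted p = 0.116, 0.0735, 0.0731 and 0.0703). Sterol synthesis showed 0 higher and 1 lower gene of 24, with a median log2 ratio of -0.27, and its 4.17% lower stands beside 8.87% of all genes tested. The number of lower genes of sterol synthesis was 0 without line 11.3, line 11.5, E14 replicate 1 or E14 replicate 2, and 3 without v6.5 replicate 1 or v6.5 replicate 2.

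In FGF, LIF and Wnt signalling, the pathways that steer embryonic stem cells between self-renewal and differentiation, 3 rose and 14 fell of 38 tested (7.89% higher and 36.8% lower; median log2 ratio -1.33, over the 34 with a ratio). Besides Fgf4, the higher genes were Lifr and Etv5. Lifr, the receptor for leukemia inhibitory factor, had 39.3 TPM in line 11.3 and 25.5 TPM in line 11.5, against 3.90 TPM in MEF (log2 fold change 2.93 ± 0.60 (SE), adjusted p = 0.0273). Etv5, a target of FGF signalling, had 150.2 TPM in line 11.3 and 196 TPM in line 11.5, against 21.0 TPM in MEF (log2 fold change 2.92 ± 0.34 (SE), adjusted p = 0.00522). Ligands and antagonists that fibroblasts secrete fell. Wnt5a had 0.626 and 2.97 TPM in the lines against 102 TPM in MEF (log2 fold change -6.27 ± 0.95 (SE), adjusted p = 0.0106). Dkk3 had 0.831 and 0.241 TPM in the lines against 104 TPM in MEF (390.3-fold lower in scaled reads, 95% counting interval 167 to 1205, adjusted p = 0.00407). Dkk2 had 0.142 and 0.144 TPM in the lines against 25.0 TPM in MEF (at least 66.2-fold lower, adjusted p = 0.0162). Fgf2 had 1.29 and 1.28 TPM in the lines against 10.1 TPM in MEF (at least 14.6-fold lower, adjusted p = 0.0299). Axin2, a target of Wnt signalling that is expressed in mESC (16.9 to 34.5 TPM), had 0.851 and 1.10 TPM in the lines against 1.61 TPM in MEF. The number of lower genes was 7 without line 11.3, E14 replicate 1 or E14 replicate 2 and 6 without line 11.5. Lifr was not called without line 11.3, E14 replicate 1 or E14 replicate 2 (adjusted p = 0.0829, 0.0772 and 0.0760). Dkk2 was not called without line 11.3 or line 11.5 (adjusted p = 0.0555 and 0.0544). Fgf2 was not called without line 11.3, line 11.5, E14 replicate 1 or E14 replicate 2 (adjusted p = 0.0891, 0.0901, 0.0835 and 0.0818).

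Interferon response and antigen presentation genes gave 1 higher and 3 lower of 31 (median log2 ratio -0.28, over the 27 with a ratio). These shares, 3.23% higher and 9.68% lower, are near the 4.95% and 8.87% of all genes tested. Oas1a, an antiviral enzyme that makes oligoadenylate, had 63.4 TPM in line 11.3 and 37.1 TPM in line 11.5, against 1.02 TPM in MEF (log2 fold change 5.97 ± 0.86 (SE), adjusted p = 0.00894). B2m, the light chain of MHC class I, had 60.5 TPM in line 11.3 and 84.5 TPM in line 11.5, against 390.3 TPM in MEF (log2 fold change -2.63 ± 0.37 (SE), adjusted p = 0.00840), and was not called without line 11.3 (adjusted p = 0.0513). The other lower genes are known to be induced by interferon. Isg15 had 0.675 and 1.30 TPM in the lines against 5.99 TPM in MEF (log2 fold change -3.14 ± 0.79 (SE), adjusted p = 0.0495). Ifit3 had 0.106 and 0.108 TPM in the lines against 0.950 TPM in MEF (at least 2.99-fold lower, adjusted p = 0.0323). Isg15 and Ifit3 were each not called without line 11.3, line 11.5, E14 replicate 1 or E14 replicate 2 (adjusted p from 0.0785 to 0.167). The number of lower genes here was 0 without line 11.3 and 1 without E14 replicate 1 or E14 replicate 2.

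Genes of neural cells and neuroectoderm were split, 3 higher and 4 lower of 21 (median log2 ratio 0.69, over the 17 with a ratio). That is 14.3% higher and 19% lower, beside 4.95% and 8.87% of all genes tested. Stmn2, a stathmin that acts on microtubules, had 334 TPM in line 11.3 and 565 TPM in line 11.5, against 24.7 TPM in MEF (log2 fold change 3.99 ± 0.61 (SE), adjusted p = 0.0110). Mapt (tau), which binds microtubules, had 18.7 TPM in line 11.3 and 44.8 TPM in line 11.5, against 3.34 TPM in MEF (182 and 484 reads in the lines against 6 in MEF; log2 fold change 5.59 ± 0.89 (SE), adjusted p = 0.0126). Zic2, a zinc finger factor that embryonic stem cells also express, had 38.9 and 23.04 TPM in the lines against 0.760 TPM in MEF (log2 fold change 5.42 ± 0.67 (SE), adjusted p = 0.00604). Ncam1, an adhesion protein, fell to 13.6 and 20.1 TPM in the lines against 182 TPM in MEF (log2 fold change -3.89 ± 0.35 (SE), adjusted p = 0.00256), and Nes (nestin) to 2.87 and 2.74 TPM in the lines against 87.2 TPM in MEF (log2 fold change -5.54 ± 0.37 (SE), adjusted p = 0.00134). Lhx2 and Nefm (a neurofilament) were low in MEF as well. Lhx2 had 2.01 and 1.74 TPM in the lines against 7.53 TPM in MEF (log2 fold change -3.93 ± 0.77 (SE), adjusted p = 0.0240). Nefm had 0.160 and 0.238 TPM in the lines against 1.52 TPM in MEF (53.8-fold lower in scaled reads, 95% counting interval 8.78 to 2214, adjusted p = 0.0190). Lhx2 was not called without line 11.5, E14 replicate 1 or E14 replicate 2 (adjusted p = 0.0824, 0.0857 and 0.0832). Nefm was not called without line 11.3, E14 replicate 1 or E14 replicate 2 (adjusted p = 0.0629, 0.0612 and 0.0582). The number of neural genes that fell was 2 without E14 replicate 1 or E14 replicate 2.

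Among endoderm and trophoblast genes 2 rose and 4 fell of 16 (median log2 ratio 0.25, over the 13 with a ratio). That is 12.5% higher and 25% lower, beside 4.95% and 8.87% of all genes tested. Tfap2a, a factor of surface ectoderm and neural crest, had 63.5 TPM in line 11.3 and 48.3 TPM in line 11.5, against 8.69 TPM in MEF (log2 fold change 2.74 ± 0.57 (SE), adjusted p = 0.0290). Gata2 had 0.577 TPM in line 11.3 and 1.03 TPM in line 11.5, against 15.7 TPM in MEF (log2 fold change -4.83 ± 1.06 (SE), adjusted p = 0.0331). Gata6 and Gata3 fell as well, as did Krt18, given above. Gata6, of primitive endoderm, had 0.172 and 0.186 TPM in the lines against 8.63 TPM in MEF (136-fold lower in scaled reads, 95% counting interval 36.8 to 1133, adjusted p = 0.00785). Gata3, of trophoblast, had 1.03 and 0.578 TPM in the lines against 7.76 TPM in MEF (49.9-fold lower in scaled reads, 95% counting interval 18.8 to 187, adjusted p = 0.0222). Esx1, a placental homeobox gene, had 1.90 and 4.18 TPM in the lines against 0.462 TPM in MEF (at least 7.43-fold higher, adjusted p = 0.0306). Gata6 was not called without line 11.3 (adjusted p = 0.0500). Gata3 was not called without E14 replicate 1 or E14 replicate 2 (adjusted p = 0.0722 and 0.0710). Esx1 was not called without line 11.5, E14 replicate 1 or E14 replicate 2 (adjusted p = 0.0527, 0.0836 and 0.0832). Cdx2, Sox17 and Foxa2 had 0 reads in the lines and in MEF. Tfap2a and Gata2 were each not called without line 11.3, line 11.5, E14 replicate 1 or E14 replicate 2 (adjusted p from 0.0677 to 0.146). The number of endoderm and trophoblast genes that fell was 2 without line 11.3, E14 replicate 1 or E14 replicate 2, and the number that rose was 1 without line 11.3 or line 11.5 and 0 without E14 replicate 1 or E14 replicate 2.

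Markers of other cell types that a fibroblast culture could hold were measured too. Of endothelial markers 2 of 13 rose (15.4%, beside 4.95% of all genes tested) and 0 fell. Tie1 and Cldn5 stayed at 0 or 1 read in the lines. Cdh5 (VE-cadherin) had 3.37 TPM in line 11.3 and 19.3 TPM in line 11.5, against 0.0566 TPM in MEF (at least 57.8-fold higher, adjusted p = 0.0336). Cdh5 passed the filter of 1 CPM in 2 libraries only through the lines, which favoured its call and its place among the 2 genes that rose. It was not tested without line 11.3 or line 11.5. Tek, the receptor of angiopoietins, had 20.4 TPM in line 11.3 and 7.70 TPM in line 11.5, against 0.328 TPM in MEF (log2 fold change 5.90 ± 0.95 (SE), adjusted p = 0.0127). Pecam1, which embryonic stem cells also express, had 0.860 TPM in line 11.3 and 15.5 TPM in line 11.5, against 0.530 TPM in MEF, beside 9.13 to 48.7 TPM in mESC. Markers of muscle, cartilage, fat and nerve sheath gave 0 higher and 5 lower of 11 (45.5% lower, beside 8.87% of all genes tested). Sox9, the factor of cartilage, had 0.343 and 1.38 TPM in the lines against 29.5 TPM in MEF (log2 fold change -6.55 ± 1.11 (SE), adjusted p = 0.0154). Col2a1, the collagen of cartilage, had 1.21 and 0.759 TPM in the lines against 29.3 TPM in MEF (11 and 1 reads in the lines against 872 in MEF; log2 fold change -7.31 ± 0.96 (SE), adjusted p = 0.00700). The other lower genes were Acan, Cebpa and Sox10. Acan, the proteoglycan of cartilage, had 0.0564 and 0.0572 TPM in the lines against 6.30 TPM in MEF (at least 101-fold lower, adjusted p = 0.00256). Cebpa, of fat cells, had 0.449 and 0.677 TPM in the lines against 7.89 TPM in MEF (log2 fold change -4.27 ± 0.66 (SE), adjusted p = 0.0112). Sox10, of nerve sheath, had 0.170 and 0.173 TPM in the lines against 1.43 TPM in MEF (at least 5.61-fold lower, adjusted p = 0.0379). Cebpa was not called without line 11.3 (adjusted p = 0.0565). Sox10 was not called without line 11.3, line 11.5, E14 replicate 1 or E14 replicate 2 (adjusted p = 0.101, 0.0988, 0.0931 and 0.0929). Myod1 had 0 reads in the lines and in MEF. Xist, the RNA that coats an inactive X chromosome, had 0.910 TPM in line 11.3 and 0.832 TPM in line 11.5, against 19.2 TPM in MEF (5 and 5 reads in the lines against 973 in MEF; log2 fold change -7.75 ± 0.84 (SE), adjusted p = 0.00397). The Y-linked genes Ddx3y, Eif2s3y and Uty had reads in the lines and in MEF alike, with 12.0 and 15.3 TPM in the lines against 5.42 TPM in MEF for Ddx3y, 13.3 and 18.4 TPM in the lines against 6.23 TPM in MEF for Eif2s3y and 4.69 and 7.66 TPM in the lines against 2.06 TPM in MEF for Uty, and none of them passed the test, nor did Kdm5d (0.305 and 0.479 TPM in the lines against 1.86 TPM in MEF). Cdh5 was not called without E14 replicate 1 or E14 replicate 2 (adjusted p = 0.0759 and 0.0756). The number of higher endothelial markers was 1 without line 11.5, E14 replicate 1 or E14 replicate 2, and that of lower markers of muscle, cartilage, fat and nerve sheath was 3 without line 11.3.

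The lists ran from a median log2 ratio of -7.17 for the fibroblast matrix and -5.70 for proteases and inhibitors up to 2.02 for DNA replication, 2.11 for epithelial genes, 2.75 for the pluripotency network and 7.30 for the 4 factors, with 0.17 for all genes tested. The medians leave out members with 3 reads or fewer in all 3 libraries, which for the pluripotency network are the genes that stayed off.

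**Figure D4:**
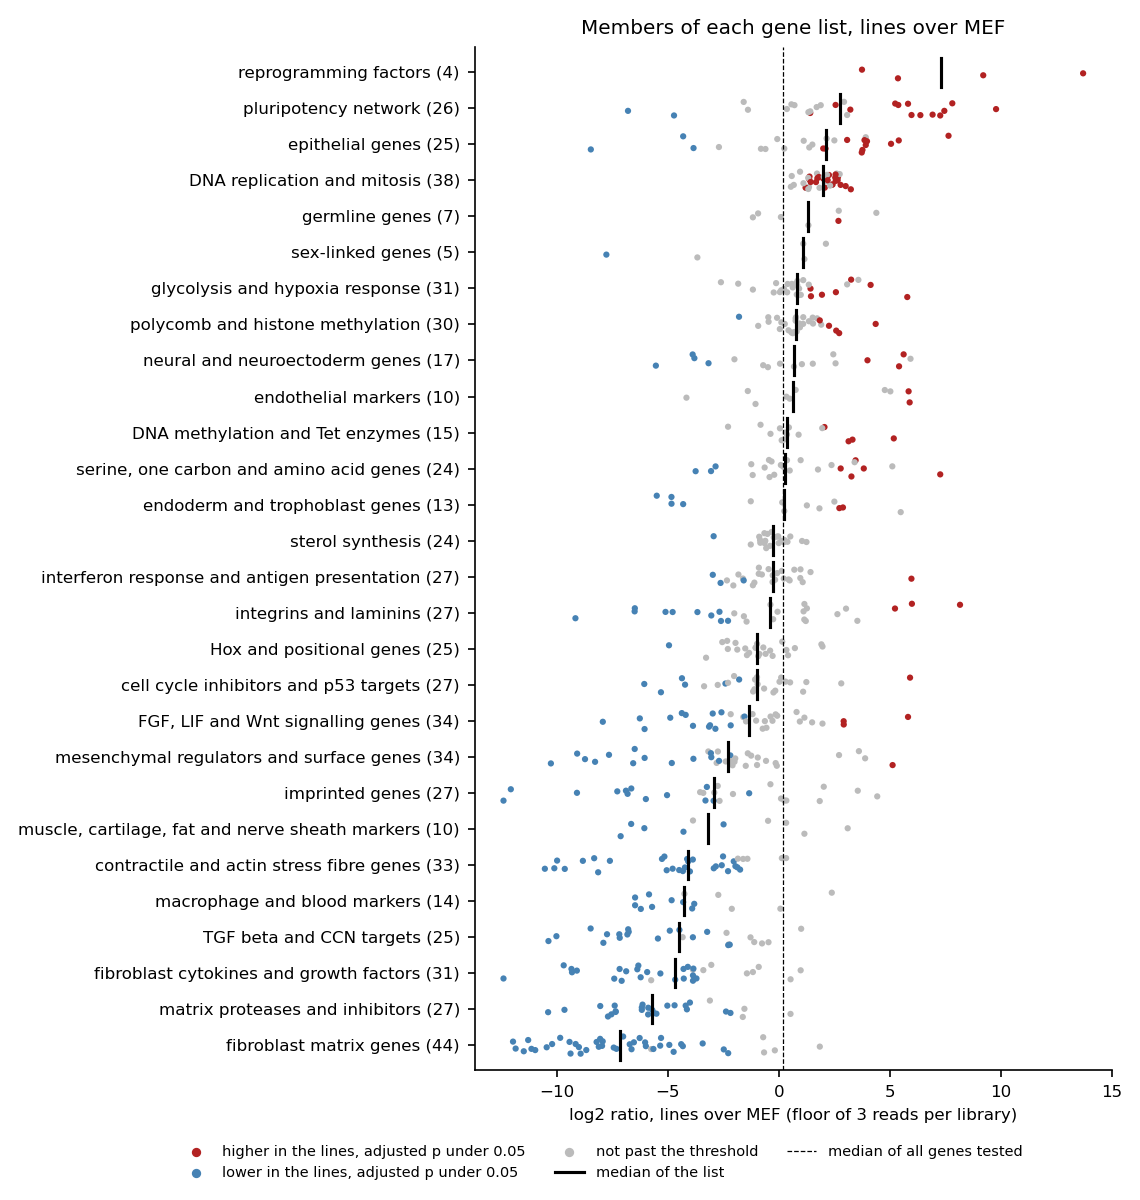
Log2 ratio of the lines to MEF (horizontal axis, floor of 3 reads per library) for each tested list member with a ratio, coloured red where higher, blue where lower and grey where not past the threshold; black bars are list medians and the dashed line is the median of all genes tested, 0.17. Matrix, protease, cytokine and contractile lists lie to the left almost as a whole, replication genes lie to the right in a narrow band, and the pluripotency and epithelial lists spread to both sides.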

How the data were processed

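Poly(A) RNA was sequenced on Illumina GAII and GAIIx instruments, per the labels' protocols. The authors aligned reads to mm9 with TopHat 1.3 and quantified genes with RSEM, per the submitters' processing notes. Neither strandedness nor the annotation release is stated there. The authors deposited expected counts per gene and TPM (abundance per length and library) for 8 survey libraries in 1 table of 42458 entries, 343 of which hold no values. A further 16 value columns of that table were not used.

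Expected counts, of which 58.0% were whole, were rounded. Genes were kept that reached 1 CPM in 2 or more of the 8 libraries, and were tested with edgeR 4.0.16 (R 4.3.3; quasi-likelihood, TMM scaling, 5 groups, 3 residual degrees of freedom, biological coefficient of variation 0.394, Benjamini-Hochberg adjustment over all genes tested, threshold 0.05). MEF and miPS have 1 library each, so the lone MEF library is assumed to vary like the pairs of lines, E14 and v6.5 libraries; nothing says that libraries of a pair came from separate cultures, and p-values measure only their spread. The procedure was tested on simulated data. Alternatives were DESeq2 1.42.0, its size factors in edgeR (RLE), other filters, limma 3.58.1 on log2(TPM + 1) and log2(TPM + 0.1), the lines and MEF alone, and leaving out single libraries; leaving out both v6.5 libraries and the rule of 4-fold in both lines were added after seeing the data.

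The floor of a library was 3 reads (0.127 to 0.398 CPM, counting error only). Where 1 side had 0 reads the ratio is a bound at that floor, not a confidence limit. For higher genes it can exceed the lower end of the exact counting interval. Where a side had some reads, but no more than 3 in MEF or 3 per line on average, the ratio is given with an exact 95% counting interval. A gene with 3 reads or fewer in all 3 libraries has no ratio. Loci that share a symbol were kept apart (96 symbols among genes tested).

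The comparison and the gene lists were chosen with earlier results of these data known. Genes named were the 12 with the largest fold change in each direction (at least 20 TPM in both lines or in MEF), the 4 factors, up to 5 called members of each list with the largest change (at least 10 TPM in MEF or in both lines), and the sex-linked genes. Other called genes were named after their values were seen. A few genes of the lists are not reported here.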

Additional observations from a re-analysis of the deposited data

Results flagged for a closer look

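Among 703 list members tested, 4 lay on opposite sides of MEF in the partially reprogrammed lines, each line at least 2-fold away and at least 1 library at 10 TPM or more, as did 24 of all genes tested. In scaled reads, line 11.5 was above MEF and line 11.3 below it in all 4. With 1 library per line, the difference was not tested.

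Grem1, a secreted inhibitor of bone morphogenetic proteins, had 9.18 TPM in line 11.3 and 212 TPM in line 11.5, against 48.0 TPM in MEF, and line 11.3 minus line 11.5 was -4.45 on the log2 scale. Des (desmin), an intermediate filament of muscle, had 3.31 TPM in line 11.3 and 67.4 TPM in line 11.5, against 24.5 TPM in MEF, a difference of -4.28. Angptl4, a secreted inhibitor of lipoprotein lipase, had 6.64 TPM in line 11.3 and 97.3 TPM in line 11.5, against 22.9 TPM in MEF, a difference of -3.81. Mylk, the myosin light chain kinase, differed by -3.85, with 19 and 290 reads in the lines against 125 in MEF, although in TPM line 11.5 was not above MEF (1.41 and 10.2 TPM in the lines against 11.8 TPM in MEF).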

How the results depend on the processing

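The number of genes called, 2318 (830 higher, 1488 lower), moved with the setting. With the lines and MEF alone, where 13537 genes were tested and 1 residual degree of freedom was left, 1169 were called, 407 higher and 762 lower. With both v6.5 libraries left out, which was chosen after seeing the data, 4711 were called, 2310 higher and 2401 lower. Over the fits that left out 1 library, the total ran from 944 to 4837, higher genes from 216 to 2427 and lower genes from 728 to 2453. Without a filter 1409 genes were higher, and with DESeq2 1364. Higher genes made up 35.8% of calls. Their share was 31.4% with DESeq2's size factors, 45.3% with limma on log2(TPM + 1), 48.7% with limma on log2(TPM + 0.1) and 49% with both v6.5 libraries left out. With 1 library left out it ran from 22.6% without E14 replicate 2 to 50.2% without v6.5 replicate 2. DESeq2's size factors in edgeR gave 2274 calls, with 2199 of the 2318 kept. On the epithelial list, 3 genes were higher with limma on log2(TPM + 1), instead of 11. The cause of these differences was not tested. No named gene with a call changed direction in any alternative in which it had a value. Some genes kept their call when single libraries were left out but lost it in at least 1 other alternative. They were Sall4, Tdgf1, Nr5a2, Ehf, Mpzl2, Fgfbp1, Cdh1, Pkp2, Cbx7, Tek, Stag3 and Itga9. Of the 168 named genes, 114 had a value with the lines and MEF alone, where 27 lost their call and 53 called ones were not tested. Calls were lost by 11 with limma on log2(TPM + 1) and by between 0 and 42 when 1 library was left out. No paired analysis was possible because MEF has 1 library and shares fewer than 2 replicate numbers with the lines. At 0.127 to 0.398 CPM per floor of 3 reads, levels of genes such as Nanog in the lines are near what could be detected.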
